A study of Mus musculus with 2 samples.

Results

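The Hedgehog pathway genes described here are Shh, Disp1, Ptch1, Hhip, Smo, Sufu, Gli1, Gli2 and Gli3, 9 genes taken for their place in the pathway, out of 21774 protein-coding genes of the RefSeq annotation of the mouse genome (build GRCm38.p6). Their peaks of the histone variant H2AZ were taken from a single deposited list, of which 21546 peaks were used. A peak was counted at a gene end when it shared at least 1 bp with the window of 1 kb to both sides of that end, in the interior when it overlapped the gene but neither end window, and in the flank when it lay outside the gene within 20 kb of it. By this rule 24 peaks belonged to the 9 genes, 9 at gene ends, 6 in interiors and 9 in flanks.

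The list comes from chromatin immunoprecipitation with sequencing (ChIP-seq) with an antibody to H2AZ, made from crosslinked neural progenitor cells that were taken from C57BL/6 embryonic brain at day 13. The series has 1 H2AZ library and 1 input library of the same cell type, and the labels name no genotype, treatment or brain region and do not say how many embryos were used. No library had a replicate, so no value has an error and no test between samples was possible. Each peak carries a score given by the authors, for which the sources used here name neither meaning nor unit. The list holds no expression values, so the labelled cell type was not checked against marker genes, and in such a bulk sample fewer cells with H2AZ at a site and less H2AZ per cell cannot be told apart. Whole-list facts were a median score of 11.93 and a median width of 1923 bp.

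Hedgehog signalling controls the fate and division of progenitors in the ventral neural tube and forebrain and in the cerebellum. The secreted ligand binds Patched1, which otherwise holds the membrane protein Smoothened inactive, and Smoothened then acts through the primary cilium to release the Gli transcription factors from Sufu and from processing into repressors. Ptch1, Hhip and Gli1 are themselves classical targets of the pathway. H2AZ replaces the canonical histone H2A in part of the nucleosomes and is found above all beside the start sites of genes, at active as well as poised promoters.

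All 9 genes had a peak at a gene end, where 55.4% of protein-coding genes did. Each of the 9 had exactly 1 such peak, so in every gene 1 end was marked and the other was not. The scores of these end peaks ran from 9.25 at Gli1 to 26.85 at Smo, with a median of 15.51, beside a median of 17.08 (quartiles 12.9 and 21.25) over the 12060 protein-coding genes with an end peak. Smo, Sufu and Disp1 lay above that median, and Ptch1, Hhip, Shh, Gli2, Gli3 and Gli1 lay below it. The end peaks of the 9 genes had a median width of 2840 bp, against 2180 bp over all peaks at gene ends. The genes were chosen with earlier results of these peaks known, so these counts and medians describe them and were not tested.

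**Figure D1:**
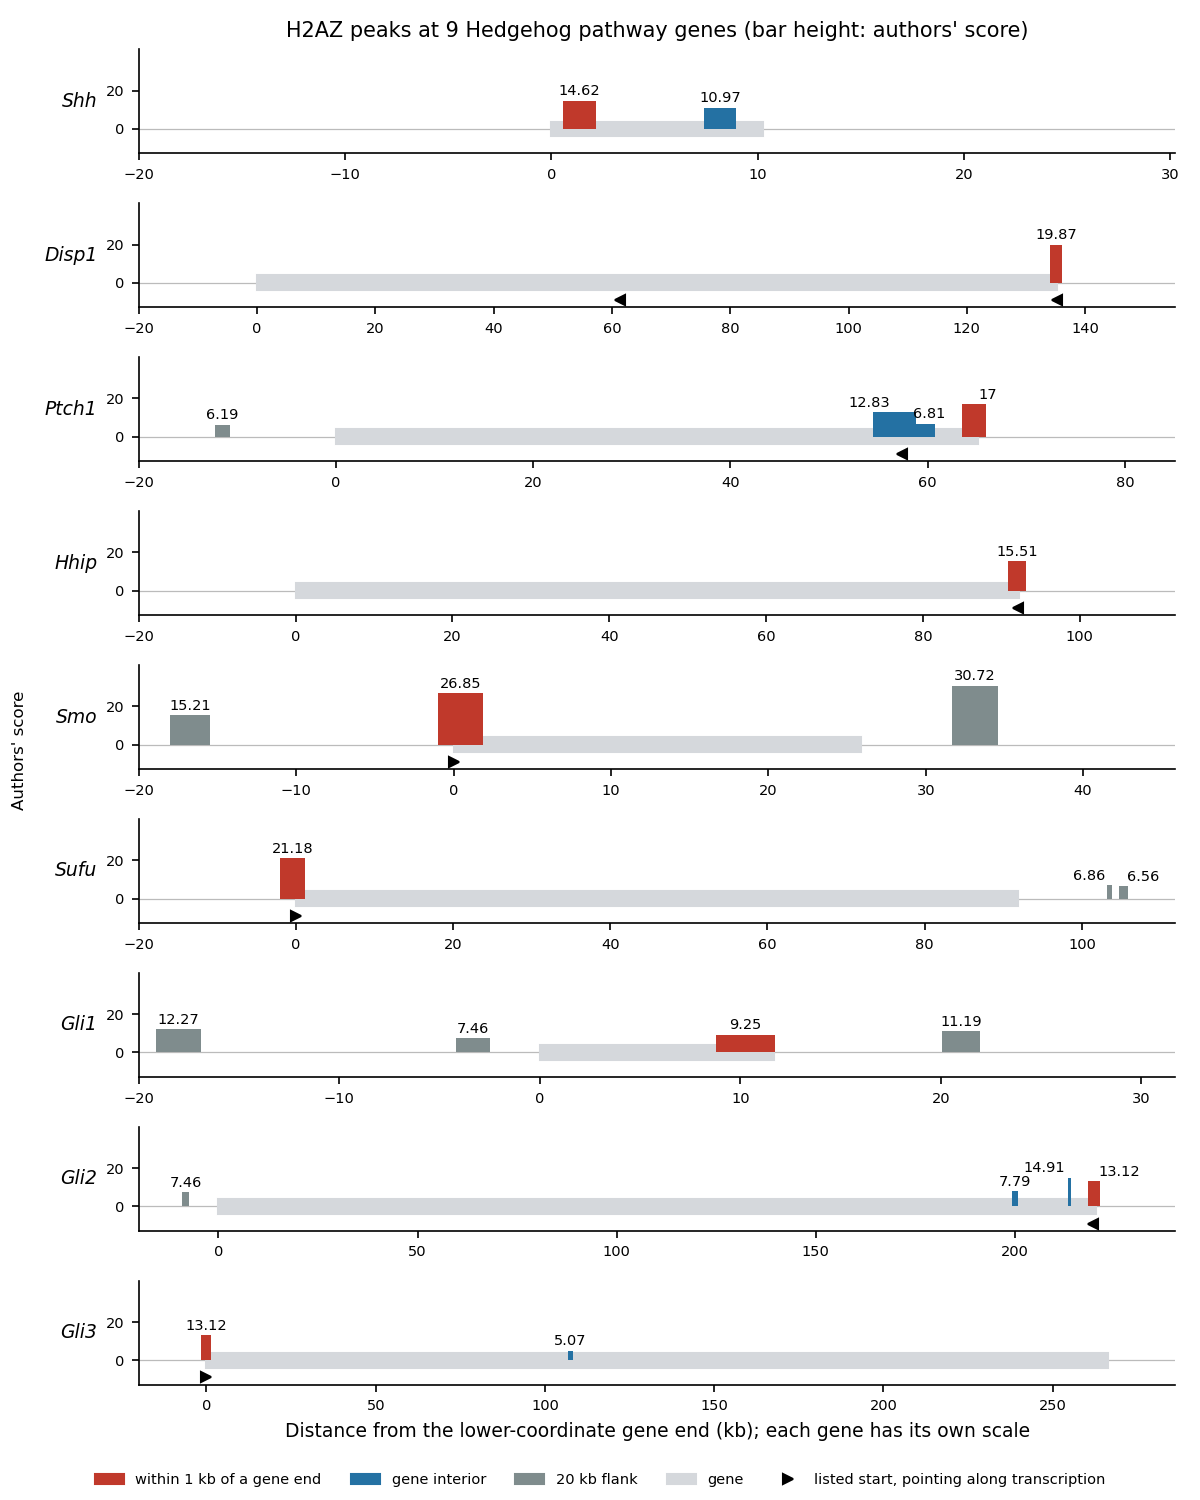
H2AZ peaks (bars, height and number: the authors' score, no unit) along each of the 9 genes and 20 kb on either side, in kb from the gene end with the lower coordinate. Every gene carries 1 red bar, a peak within 1 kb of a gene end, and blue interior peaks are seen at Shh, Ptch1, Gli2 and Gli3.

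The start sites themselves were read from RefSeq windows of 300 bases, from 250 bases before to 50 after each listed start, which give the strand. They matched 7 of the 9 genes, Disp1 with 2 starts and Ptch1, Hhip, Smo, Sufu, Gli2 and Gli3 with 1 each. Shh and Gli1 had no entry, so which of their ends is the start was not read, and their end peaks may lie at either. A peak lay within 1 kb of a listed start in all 7 genes, beside 55.3% of the 17492 protein-coding genes with a listed start. The peak covered the start itself in each of the 7. Of the 8 listed starts, the only one with no peak was the inner start of Disp1.

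Of these windows 5 are shown because they span the range seen at the 7 genes. They are that of Smo, with the highest score (chr6:29735247-29735546, plus strand), those of the outer (chr1:183221480-183221779) and the inner start of Disp1 (chr1:183147508-183147807), with and without a peak, and those of Ptch1 (chr13:63565686-63565985) and Gli3 (chr13:15463473-15463772, plus strand), which are the richest in CpG. The windows of Disp1 and Ptch1 are on the minus strand. All are GRCm38.p6 sequence from RefSeq, written from 5′ to 3′, and capitals mark each CpG, the dinucleotide at which mammalian DNA is methylated.
Smo: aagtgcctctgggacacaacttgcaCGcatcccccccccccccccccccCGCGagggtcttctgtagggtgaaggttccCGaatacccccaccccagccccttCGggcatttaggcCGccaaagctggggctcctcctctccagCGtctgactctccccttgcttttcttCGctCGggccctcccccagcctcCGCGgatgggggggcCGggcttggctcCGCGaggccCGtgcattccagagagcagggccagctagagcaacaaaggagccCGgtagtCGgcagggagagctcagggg
Disp1 outer start: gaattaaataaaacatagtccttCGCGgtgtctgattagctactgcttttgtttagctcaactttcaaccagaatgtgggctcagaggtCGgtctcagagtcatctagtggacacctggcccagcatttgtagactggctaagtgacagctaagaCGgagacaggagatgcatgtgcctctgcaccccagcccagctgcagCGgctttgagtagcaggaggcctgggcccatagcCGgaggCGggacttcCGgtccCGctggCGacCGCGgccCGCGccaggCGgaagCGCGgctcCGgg
Disp1 inner start: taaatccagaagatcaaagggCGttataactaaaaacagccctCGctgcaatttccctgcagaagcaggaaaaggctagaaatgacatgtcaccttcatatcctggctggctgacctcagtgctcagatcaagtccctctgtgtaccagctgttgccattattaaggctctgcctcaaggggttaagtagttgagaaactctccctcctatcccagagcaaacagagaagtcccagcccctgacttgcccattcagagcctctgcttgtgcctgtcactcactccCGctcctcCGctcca
Ptch1: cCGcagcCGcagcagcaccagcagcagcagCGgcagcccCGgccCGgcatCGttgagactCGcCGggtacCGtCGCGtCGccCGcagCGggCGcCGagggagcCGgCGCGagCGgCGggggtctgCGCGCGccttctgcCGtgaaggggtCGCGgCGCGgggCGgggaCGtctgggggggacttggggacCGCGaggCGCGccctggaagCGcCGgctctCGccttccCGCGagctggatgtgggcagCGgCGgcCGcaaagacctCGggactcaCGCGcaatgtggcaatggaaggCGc
Gli3: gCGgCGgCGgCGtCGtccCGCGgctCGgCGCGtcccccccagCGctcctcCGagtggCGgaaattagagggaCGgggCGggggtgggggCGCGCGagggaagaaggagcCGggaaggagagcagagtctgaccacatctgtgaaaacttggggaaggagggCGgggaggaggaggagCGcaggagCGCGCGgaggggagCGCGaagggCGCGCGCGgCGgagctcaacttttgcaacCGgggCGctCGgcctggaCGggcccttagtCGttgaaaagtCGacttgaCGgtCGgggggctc

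The number of CpG in these windows differed widely between the genes. Ptch1 had 47, Gli3 39, Hhip 30 and Gli2 28, whereas Disp1 had 18 at its outer start, Smo 17 and Sufu 12, and the inner start of Disp1 had 4. As a ratio of observed to expected CpG, which corrects for the content of C and G, this was 1.12 at Gli3, 1.09 at Ptch1, 0.83 at Gli2, 0.747 at Hhip, 0.700 at the outer start of Disp1, 0.506 at Sufu, 0.504 at Smo and 0.217 at the inner start of Disp1. Counting a window as CpG-rich from a ratio of 0.6 and a GC content of 50%, Gli3, Ptch1, Gli2, Hhip and the outer start of Disp1 were CpG-rich and Smo, Sufu and the inner start of Disp1 were not. Of all CpG-rich windows 83.2% had a peak within 1 kb of the start, and of the other windows 30.4% did, so the 5 CpG-rich starts of the Hedgehog genes were marked like most of their kind, and Smo and Sufu were marked among windows of which fewer were. Their ratio lay just under the limit, in the class from 0.5 to below 0.6, where 73.5% of all starts had a peak.

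The highest scores at the Hedgehog starts were not at the windows richest in CpG. Smo (26.85) and Sufu (21.18) had the highest scores with the lowest ratios among the marked starts, and Gli3 (13.12), Ptch1 (12.83) and Gli2 (13.12) had the lowest scores with the highest ratios. Over all genes the median score of marked starts was 15.81 in the class of Smo and Sufu and 18.49 in the class from 1 to below 1.1, which holds Ptch1. Smo and Sufu thus lay above the median of their class, and Ptch1 lay below that of its own. Ptch1 also had a higher peak, of score 17.0, at its upper gene end. No start is listed there, so that peak did not enter this comparison. The Sufu peak also covers an end of Actr1a, so its score cannot be given to Sufu alone.

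**Figure D2:**
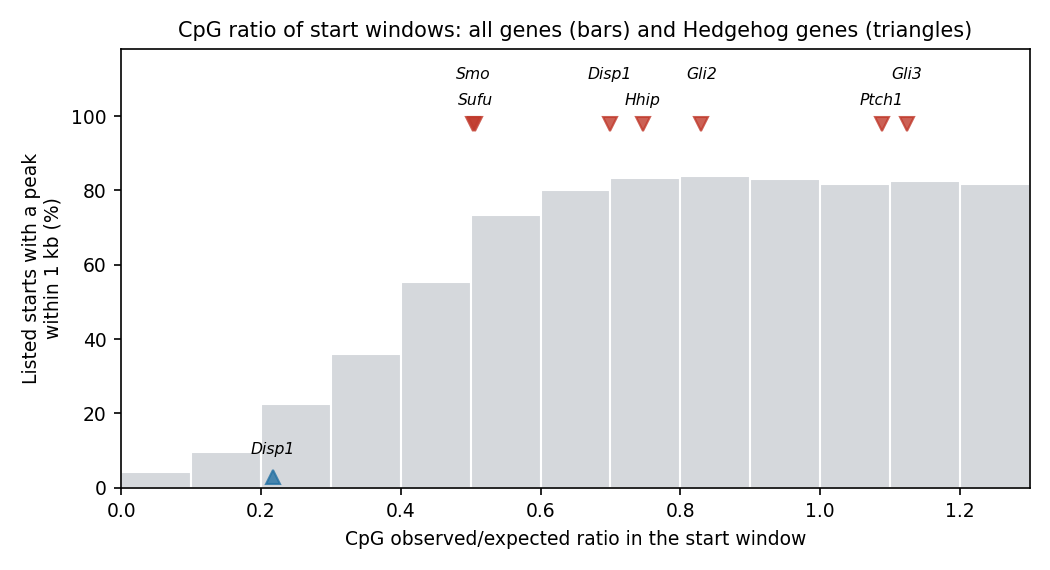
Share of all listed starts of protein-coding genes with a peak within 1 kb (bars, in percent) by the observed to expected CpG ratio of the start window, in classes of 0.1 with at least 20 starts. Triangles give the ratio of each Hedgehog gene, red and pointing down where a peak was present, blue and pointing up at the inner start of Disp1, which had none and a ratio of 0.217; the height of a triangle has no value.

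The 8 windows were searched for 4 short promoter motifs. The letters GACCACCCA, the core bound by Gli proteins, were in 0 of the 8 on either strand, and in 0.179% of all start windows. GGGCGG, the GC box, was in 5 of 8 (Ptch1, Hhip, Sufu, Gli2 and Gli3) against 46.2% of all, CCAAT in 1 of 8 (Sufu) against 38.2%, and TATAAA in 0 of 8 against 12.6%. Both strands were searched for every motif, and none of the 4 contains another. A match is only a run of letters, and a window without one may have the motif outside its 300 bases.

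The ligand gene Shh, which encodes Sonic hedgehog, lies on chromosome 5 from 28456840 to 28467101, a gene of 10262 bp. It had 2 peaks, both inside the gene and both narrower than the median peak. The one counted at an end had a score of 14.62 (chr5:28457422-28459006, 1585 bp wide) and began 582 bp inside the end with the lower coordinate. The interior one had a score of 10.97 (chr5:28464261-28465819, 1559 bp wide) and stopped 1282 bp short of the end with the higher coordinate. Shh was thus the only one of the 9 genes whose end peak did not reach the gene end itself. The end score of Shh was above that of 33.7% of protein-coding genes with an end peak. With no listed start for Shh, this score was not read as one at its start.

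Over gene and flanks Shh had 3.98 peaks per 100 kb, above the median of 1.67 over all protein-coding genes, and both its peaks were inside the gene. None lay in its 20 kb flanks, where 44.2% of all protein-coding genes had one. The nearest were 138.6 kb below it, with a score of 22.97, and 53.5 kb above it, with a score of 7.76. The next protein-coding gene above, Rnf32, was 725.6 kb away, and 3 listed peaks lay in between. The stretch below, of 37.6 kb up to Rbm33, held 0.

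Disp1, which encodes the transporter-like membrane protein that releases the lipid-bound ligand from the cells that make it, lies on chromosome 1 from 183086264 to 183221537. Its one peak had a score of 19.87 (chr1:183220311-183222399, 2089 bp wide) and reached from 870 bp before to 1218 bp after the outer start. In the whole gene of 135274 bp no other peak was listed, although 42.8% of the 2427 protein-coding genes over 100 kb had an interior peak. Marking of the outer of 2 starts alone was also the most frequent arrangement elsewhere. Of 638 protein-coding genes with exactly 2 listed starts over 5 kb apart, 247 had a peak at the upstream start only, 87 at the downstream start only, 149 at both and 155 at neither.

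Ptch1, the gene of the receptor, had 3 peaks over its body, as many as Gli2 and more than the other genes. It lies on chromosome 13 from 63508328 to 63573460 and is transcribed towards lower coordinates. At its upper end stood a peak of score 17.0 (chr13:63571777-63574279, 2503 bp wide). Another peak, of score 12.83 (chr13:63562822-63567103), covered the listed start, which lies within the gene, so this peak is interior by the rule and yet at a start site. Its width of 4282 bp was the 93rd greatest of the 21546 peaks. A further peak of score 6.81 (chr13:63567136-63569072) followed after a gap of 32 bp, on the upstream side of the listed start. These 3 peaks lay in the part of Ptch1 nearest its upper end, and none was listed in the remaining 54494 bp down to the lower end. With its midpoint 772.5 bp downstream of the listed start, the wide Ptch1 peak was the least centred of the 7, and 92.7% of marked starts over all genes had a nearer midpoint.

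Hhip encodes a membrane protein that binds Hedgehog ligands and so inhibits the pathway. The gene lies on chromosome 8 from 79965850 to 80058060 and had 1 peak, of score 15.51 (chr8:80056705-80059013, 2309 bp wide), reaching from 1005 bp before to 1303 bp after its start. No peak lay in the rest of its 92211 bp or in its flanks, and the nearest were 135.5 kb below it and 110.0 kb above it. Hhip and Disp1 were the 2 genes of the 9 with 1 peak in the gene and flanks together.

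Smo, which encodes the transducer Smoothened, had the highest score of the 9. It lies on chromosome 6 from 29735497 to 29761366. Its peak of score 26.85 (chr6:29734516-29737392, 2877 bp wide) ranked 626 among all peaks and exceeded the end score of 94.4% of protein-coding genes with an end peak. It reached 981 bp upstream and 1895 bp downstream of the start. Smo had no interior peak. Both its flank peaks were at ends of neighbours, one of score 15.21 at Tspan33 and one of score 30.72 at Ahcyl2, which was higher than that of Smo itself.

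Sufu, the gene of the cytoplasmic inhibitor that binds Gli proteins, lies on chromosome 19 from 46396896 to 46488804. Its peak of score 21.18 (chr19:46394885-46398104) was 3220 bp wide and is shared, since it also covers an end of Actr1a, 1.15 kb away. It reached 2011 bp upstream and 1208 bp downstream of the Sufu start, so how much of it belongs to either gene cannot be told apart. The interior of Sufu held no peak. Its flank peaks, of scores 6.86 and 6.56, were both at an end of Trim8.

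**Figure D3:**
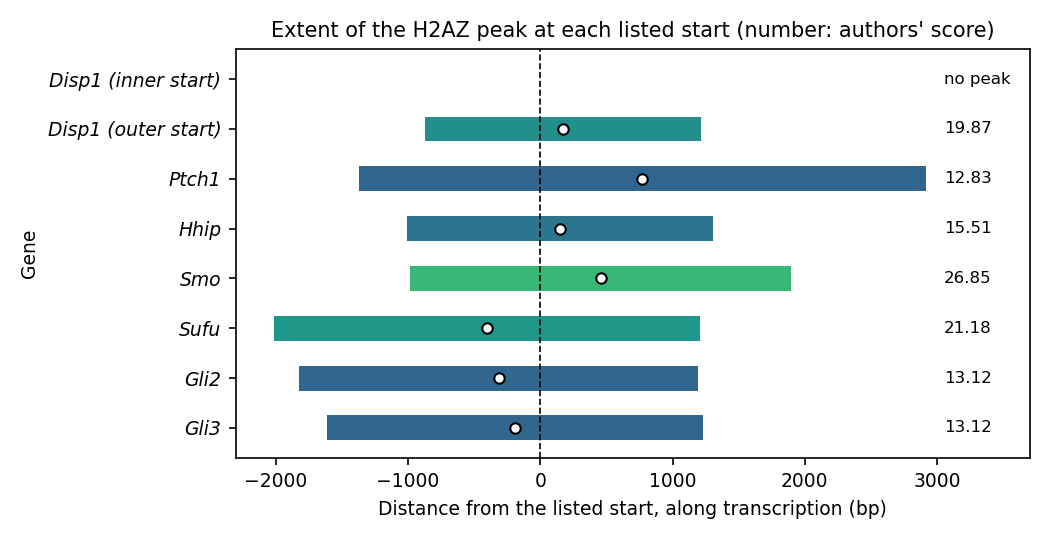
Extent of the H2AZ peak at each of the 8 listed starts, in bp along the direction of transcription, with the peak midpoint as a circle, the start as a dashed line and the authors' score at the right and as the colour. All 7 peaks span the start, and the Ptch1 peak reaches farthest downstream, to 2913 bp.

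The 3 Gli genes encode the zinc finger transcription factors at the end of the pathway, Gli1 acting as an activator, Gli2 mainly as an activator and Gli3 mainly as a repressor. Their end scores were the lowest of the 9 genes, 9.25 at Gli1 and 13.12 at both Gli2 and Gli3. Their end peaks were among the wide ones, at 2947 bp for Gli1, 3017 bp for Gli2 and 2840 bp for Gli3. Among the 1710 peaks of at least 2800 bp, whose median score was 16.41, the score of Gli1 exceeded 9.94% and that of Gli2 and Gli3 29.3%. The wide interior peak of Ptch1 stood likewise above 27.8% of them, whereas the end peaks of Sufu and Smo stood above 78.1 and 95.3%.

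Gli1 is short, 11698 bp on chromosome 10 from 127329882 to 127341579, in a stretch dense with genes. Its end peak (chr10:127338672-127341618) lay almost wholly inside the gene and passed its upper end by 39 bp. Only 9.05% of protein-coding genes with an end peak had a lower end score. The flanks held 3 peaks, more than at any other of the 9 genes. One of score 12.27 was at an end of Mars1, one of score 11.19 was at both ends of the short gene Inhbe, and one of score 7.46 lay inside Arhgap9, the gene that overlaps the lower end of Gli1.

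Gli2 spans 220345 bp on chromosome 1 from 118834061 to 119054405 and is transcribed towards lower coordinates. Its end peak (chr1:119052426-119055442) reached 1823 bp upstream and 1193 bp downstream of the start. Of its 2 interior peaks one, of score 14.91 (chr1:119047438-119048275), was higher than the end peak, although it was only 838 bp wide. Among the 126 peaks of at most 1000 bp, whose median score was 8.35, 4 had a higher score. The other interior peak had a score of 7.79 (chr1:119033289-119034868). Both lay downstream of the start in the part of the gene nearest to it, and 206.6 kb separated the latter from the next listed peak, of score 7.46, which stood 7.38 kb beyond the lower end of Gli2.

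Gli3 is the longest of the 9 genes, 266304 bp on chromosome 13 from 15463723 to 15730026. Its end peak (chr13:15462111-15464950) reached 1612 bp upstream and 1227 bp downstream of the start. Its one interior peak (chr13:15570440-15571973, 1534 bp wide) had a score of 5.07, which only 1.29% of all peaks were below, and stood 106717 bp from the start. No peak lay in the flanks of Gli3. Gli2 and Gli3 thus had the same end score and similar lengths but differed in their interior peaks.

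**Figure D4:**
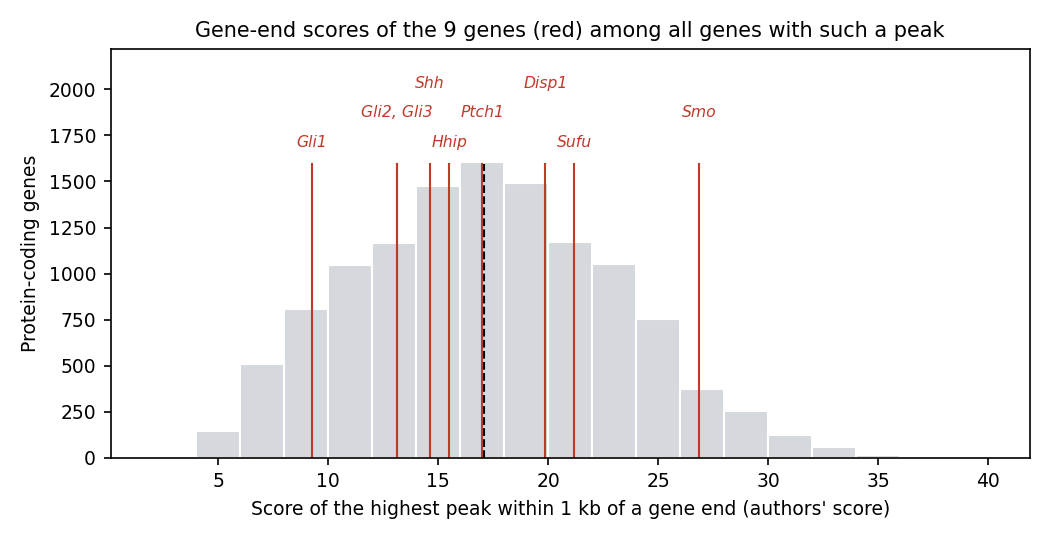
Number of protein-coding genes by the score of their highest peak within 1 kb of a gene end (grey bars, 2 score units wide, authors' score), with the 9 Hedgehog genes as red lines and the median of all such genes, 17.08, as a dashed line. Gli1 stands lowest of the 9 at 9.25 and Smo highest at 26.85.

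Interior peaks were seen at 4 of the 9 genes, namely Shh, Ptch1, Gli2 and Gli3, and at 13.8% of all protein-coding genes. Longer genes have more room for them: the share over all genes was 4.55% up to 20 kb, 19.0% above 20 and up to 100 kb and 42.8% above 100 kb. Of the 9 genes 2 were in the shortest class, where Shh had an interior peak and Gli1 had none. In the next class of 4 genes Ptch1 had them and Smo, Hhip and Sufu had none, and in the last class of 3 genes Gli2 and Gli3 had them and Disp1 had none. Exons and introns were not given in the tables used, so interior peaks were not assigned to either.

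A flank peak was present at 5 of the 9 genes (Ptch1, Smo, Sufu, Gli1 and Gli2), close to the 44.2% of all protein-coding genes. Of these 9 peaks 7 lay at an end of another protein-coding gene, including one of score 6.19 at Fancc, 10.8 kb below Ptch1. Beside the peak in Arhgap9, only the one below Gli2 was at no gene end, and it lay in no protein-coding gene. Counted over gene and flanks, the 9 genes ranged from 0.571 peaks per 100 kb at Disp1 to 7.74 at Gli1, with a median of 2.27, where the median over all protein-coding genes was 1.67.

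Other genes of the pathway were read from 6 lists of 51 genes in all, ordered by role. An end peak was present at 42 of the 51, again beside 55.4% of all protein-coding genes, and the median of their end scores was 15.81. Such a peak may lie at either end of a gene, and 11 of the genes shared one with another protein-coding gene. In the list of ligand making and release 5 of 6 genes had an end peak, and Scube3 had none. Highest were Hhat, the acyltransferase gene for Hedgehog ligands (27.14), and Dhh, the Desert hedgehog gene (25.65, a peak shared with Rhebl1). No peak lay within 1 kb of a listed start of Dhh. All 4 genes of the list of receptors and co-receptors had an end peak. Lrp2 (20.58) and Cdon, which encodes a ligand-binding membrane protein (15.36), were highest. Cdon too had no peak within 1 kb of a listed start. The median end score was 17.0 in the former list and 14.58 in the latter.

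Transducers at the membrane and cilium had an end peak in 7 of 10 cases, with Iqce (21.53) and Arl13b, a ciliary GTPase gene (19.87), highest and Arrb2 and Evc among those without. Gpr161 (18.2) shared its end peak with another gene and had none within 1 kb of a listed start. Intracellular regulators of the Gli proteins had one in 11 of 12, led by the kinase gene Ulk3 (25.95, shared with Scamp2) and Prkar1a, a regulatory subunit of protein kinase A (20.88), and Prkacb, a catalytic subunit of the same kinase, had none. Ciliary transport genes had one in 7 of 7, led by Ift88 (26.25) and the dynein gene Dync2h1 (23.56, shared with Dcun1d5).

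Target genes of the pathway had an end peak in 8 of 12 cases. Their median score of 8.36 was the lowest of the 6 lists, whose other medians ran from 14.58 to 18.49. Of the 8 genes 1, Bcl2 (19.39), a survival gene, lay above the median of all genes, and the next highest was the proto-oncogene Mycn (10.44). Lowest was Nkx2-2 (6.62), which had no peak within 1 kb of a listed start. Ccnd1, Ccnd2 and Foxf1 had no listed start, so whether their end peaks lie at a start was not read. Foxa2, a floor plate regulator, and Nkx2-1, a regulator of the ventral forebrain, were among the 4 without, and Nkx2-1 held an interior peak of score 6.26. The classical targets among the 9 genes, Gli1 (9.25), Hhip (15.51) and Ptch1 (17.0), all lay within the range of the 8 targets with an end peak, 6.62 to 19.39. Hhip and Ptch1 lay above each of these 8 except Bcl2. The lists were written with earlier results known, and no difference between them was tested.

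**Figure D5:**
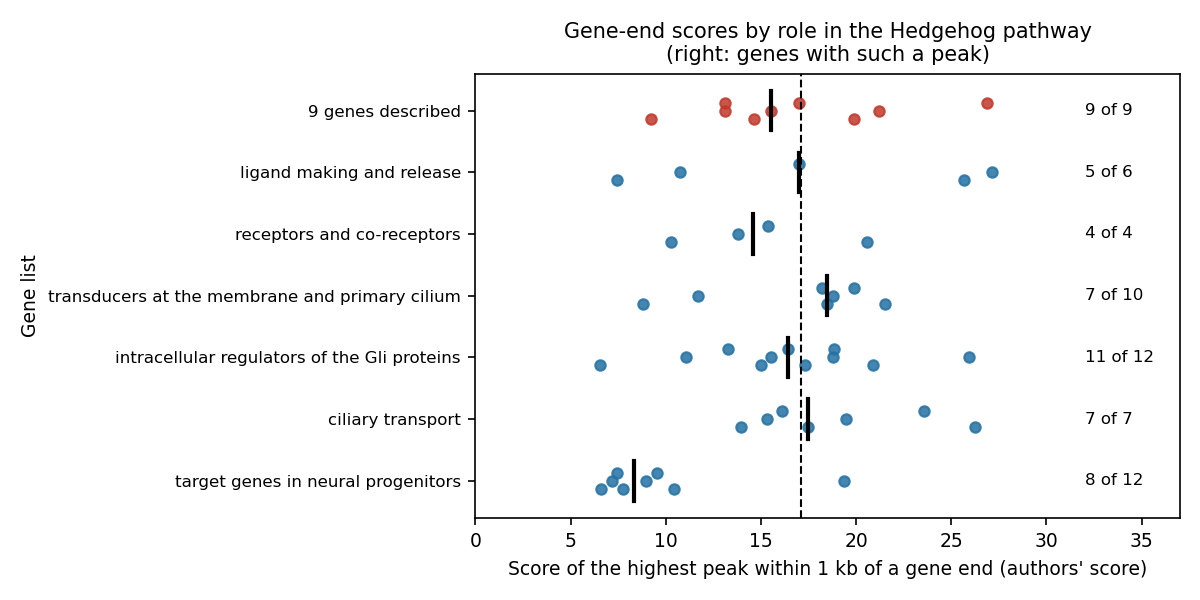
End scores (authors' score) of the 9 genes (red) and of the genes of 6 other lists of the Hedgehog pathway (blue), with each list's median as a black bar, the median of all protein-coding genes with an end peak, 17.08, as a dashed line, and the number of genes with an end peak at the right. Small vertical offsets only separate points; the target genes lie at 6.62 to 10.44 except Bcl2 at 19.39.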

How the data were processed

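The 1 deposited peak list has no header; per the deposited file, peaks were named by MACS, a peak caller, and the sources used here do not give its version, settings or control. The submitters' processing notes name Bowtie2 2, CASAVA 1.4, FastQC and the build mm9. The score of each peak is the authors' own value and was used only to rank and describe peaks of this list. Read depth is unknown and ChIP was not compared with input. A gene without a listed peak may have had one among the called peaks that are not listed (names number up to 32646, and 21592 are listed). The 46 peaks numbered after the last peak of Y stand out of order and were left out; none lay at the 9 genes.

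Positions were read as GRCm38 and starts are printed counted from 1. At 1 kb, 51.6% of peaks were at protein-coding gene ends of the GRCm38.p6 table, and 8.26 to 8.32% were after a shift of 1000000 bp. Genes on unplaced sequences were dropped. All 9 and 51 gene symbols were found; 1 further pathway gene is not reported here. Named genes were the 9 members, genes with an end within 1 kb of a described peak or next to an intergenic one and, per list, the 2 highest end scores and the first 2 in alphabetical order without an end peak. Arhgap9, Rbm33, Rnf32, Rhebl1, Scamp2, Dcun1d5, Gpr161, Nkx2-2, Ccnd1, Ccnd2 and Foxf1 fall outside that rule and were named after their values were seen. The members and lists were chosen with earlier results of these data known, and the CpG limits, the wide and narrow classes and the pairs of starts were chosen after seeing the data. No statistical test was made. Alternatives were windows of 500 bp, 2 and 5 kb, flanks of 10 and 50 kb, peaks scoring at least the median, midpoints, and merging of peaks up to 500 bp apart. Python 3.11.15, numpy 2.4.6, pandas 2.3.3 and matplotlib 3.10.9 were used, and the overlap code was tested on simulated data.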

Additional observations from a re-analysis of the deposited data

How the results depend on the processing

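With 1 library per group nothing could be left out, and no paired analysis was possible because each group had 1 library. The 9 genes with an end peak became 8 with windows of 500 bp (without Shh), 8 with peaks at or above the median score (without Gli1) and 7 by midpoint (without Shh and Gli1), beside 54.0, 44.4 and 51.1% of all genes, and remained 9 with windows of 2 and 5 kb. All 7 genes with a listed start kept a peak there in every alternative run, and the median end score stayed between 15.51 and 17.0. Peaks at or above the median score left 2 of the 4 genes with interior peaks, 2 of the 5 with flank peaks and 13 of the 24 peaks. The genes with interior peaks were 5 by peak midpoint and 3 with end windows of 5 kb removed. Those with flank peaks were 3 with flanks of 10 kb and 6 with flanks of 50 kb. The 42 other pathway genes with an end peak stood beside 55.4% of all genes. They ranged from 28 with peaks at or above the median score, beside 44.4%, to 44 with windows of 5 kb, beside 60.8%. Scores lack a unit and a depth, so small differences between them cannot be weighed.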

Other observations

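Of the 21592 listed peaks, 46 carry numbers out of positional order and were left out by that property. Among the other 21546 the numbers in the peak names rise along each chromosome. A skipped number is therefore described here by the gap in which the numbering would place it, although the 46 show that a number does not always give the position. Over these peaks 31.1% of neighbouring pairs skip at least 1 number. At the 9 genes 24 gaps lie in or next to a gene, and 7 of them skip a number, 9 numbers in all. In Gli3, 2 numbers are skipped in the 105.5 kb between its end peak and its interior peak, a gap that lies wholly inside the gene, where the list gives 0 peaks. Around Gli1 a number is skipped on either side of its end peak, in gaps of 11.3 and 8.30 kb. Hhip has 2 skipped numbers in the 226.4 kb below its peak, a gap that includes nearly the whole gene, and 1 in the gap above. Shh and Ptch1 have 1 each in the gap above their uppermost peak. At Disp1, Smo, Sufu and Gli2 no number is skipped in any such gap, which does not show that no unlisted peak lay there. The scores of the unlisted peaks and the reason for leaving them out are not stated in any source used here.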
